A study of Mus musculus with 8 samples.

Results

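The genes described here are 42 genes of the sarcomere and of contraction, taken by symbol from a list of members. All 42 had 1 row in each of the 2 deposited tables, which list 52139 and 52338 genes. The cells were labelled C2C12, an immortalised mouse myoblast line, wild type in every library. One table, called the pair table here, holds 1 control library given DMSO, a solvent, and 1 library treated with ginseng berries concentrate (GBC). The other, called the myoblast table here, holds 3 libraries of DMSO controls and 3 libraries of cells given ginsenoside Re (Re), a saponin of ginseng. Doses and times were not given in the labels, and nothing in them says that the 3 libraries of a group came from separate cultures, so p-values measure only the spread between these libraries. Levels are in TPM, the share of a gene's transcripts among all, corrected for length and scaled to a fixed total, so they can be set side by side between genes. TPM keeps no read depth, so no counting interval can be given for the low values below.

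The sarcomere is the contractile unit of striated muscle. Myosin thick filaments, held together at the M-band, pull on actin thin filaments that are anchored by alpha-actinin at the Z-disc, and troponin on the thin filament makes the pull depend on calcium. Calcium leaves the sarcoplasmic reticulum through the ryanodine receptor when the voltage sensor in the T-tubule is excited, and a calcium pump returns it. Most of these genes are switched on when myoblasts leave the cell cycle, express myogenin and fuse, and several developmental, cardiac and slow isoforms are made before the adult fast isoforms.

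The labelled cell type was checked against its markers before the levels were read. In the 6 libraries of the myoblast table the myoblast genes Myod1, Myf5, Cdh15 and Des were at 9.95 to 13.6, 30.2 to 34.2, 12.8 to 17.5 and 114.9 to 127.4 TPM, and Pax7 was at most 0.13 TPM. Myogenin (Myog), the factor of commitment, was at most 0.3 TPM and the fusion gene Mymk at most 0.29 TPM, while the cycling marker Top2a was at 175.9 to 235.9 TPM. In the pair table Myod1, Myf5, Cdh15 and Pax7 were listed at 0 in both libraries and Des at 1.92 and 1.59 TPM. The summed level of 6 fibroblast and mesenchymal markers was 78.4 and 139.5 TPM in the pair and 212.9 to 310.6 TPM in the myoblast table. Its members differed in direction: Thy1 was at 23.8 and 22.1 TPM in the pair and at most 0.08 TPM in the myoblast table, while Col3a1 was at 19.8 and 39.3 TPM in the pair and 177.8 to 271.2 TPM in the myoblast table. The pair therefore lacked Myod1, Myf5 and Cdh15, which the myoblast table holds, and the libraries are called by their treatment below. The listed TPM summed to 403442 and 479938 in the pair and to 642180 to 743269 in the myoblast table.

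In the myoblast table most of the contractile genes averaged under 1 TPM, as did most of all genes listed there. The highest were genes of the thin filament and the Z-disc. Of the 42 genes 8 averaged 1 TPM or more over the 6 libraries, 13 averaged 0.1 to 1 TPM, 12 averaged above 0 but under 0.1 TPM, and 9 were listed at 0 in every library. An average of 1 TPM was reached by 22.9% of all 52338 genes listed there. Of those 52338 genes 5204 averaged 0.1 to 1 TPM, and 23902 were above 0 in at least 1 library, as were 33 of the 42. Low levels are therefore not particular to the contractile genes. The 8 genes were Tnnt2 (ENSMUSG00000026414), Acta1 (ENSMUSG00000031972), Ldb3 (ENSMUSG00000021798), Actn3 (ENSMUSG00000006457), Tnnc1 (ENSMUSG00000091898), Mylpf (ENSMUSG00000030672), Actc1 (ENSMUSG00000068614) and Myl4 (ENSMUSG00000061086). By part of the sarcomere, a mean of 1 TPM was reached by 4 of 11 thin filament genes, 2 of 14 thick filament genes, 2 of 9 Z-disc and titin genes, 0 of 4 genes of excitation-contraction coupling and 0 of 4 genes of energy, oxygen supply and myosin folding. In the pair, 3 of the 42 genes reached 1 TPM, as did 21.1% of all genes. Only Tnnt2 and Myl4 reached it in both tables. In such bulk libraries, fewer cells of a type and less RNA per cell cannot be told apart.

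**Figure D1:**
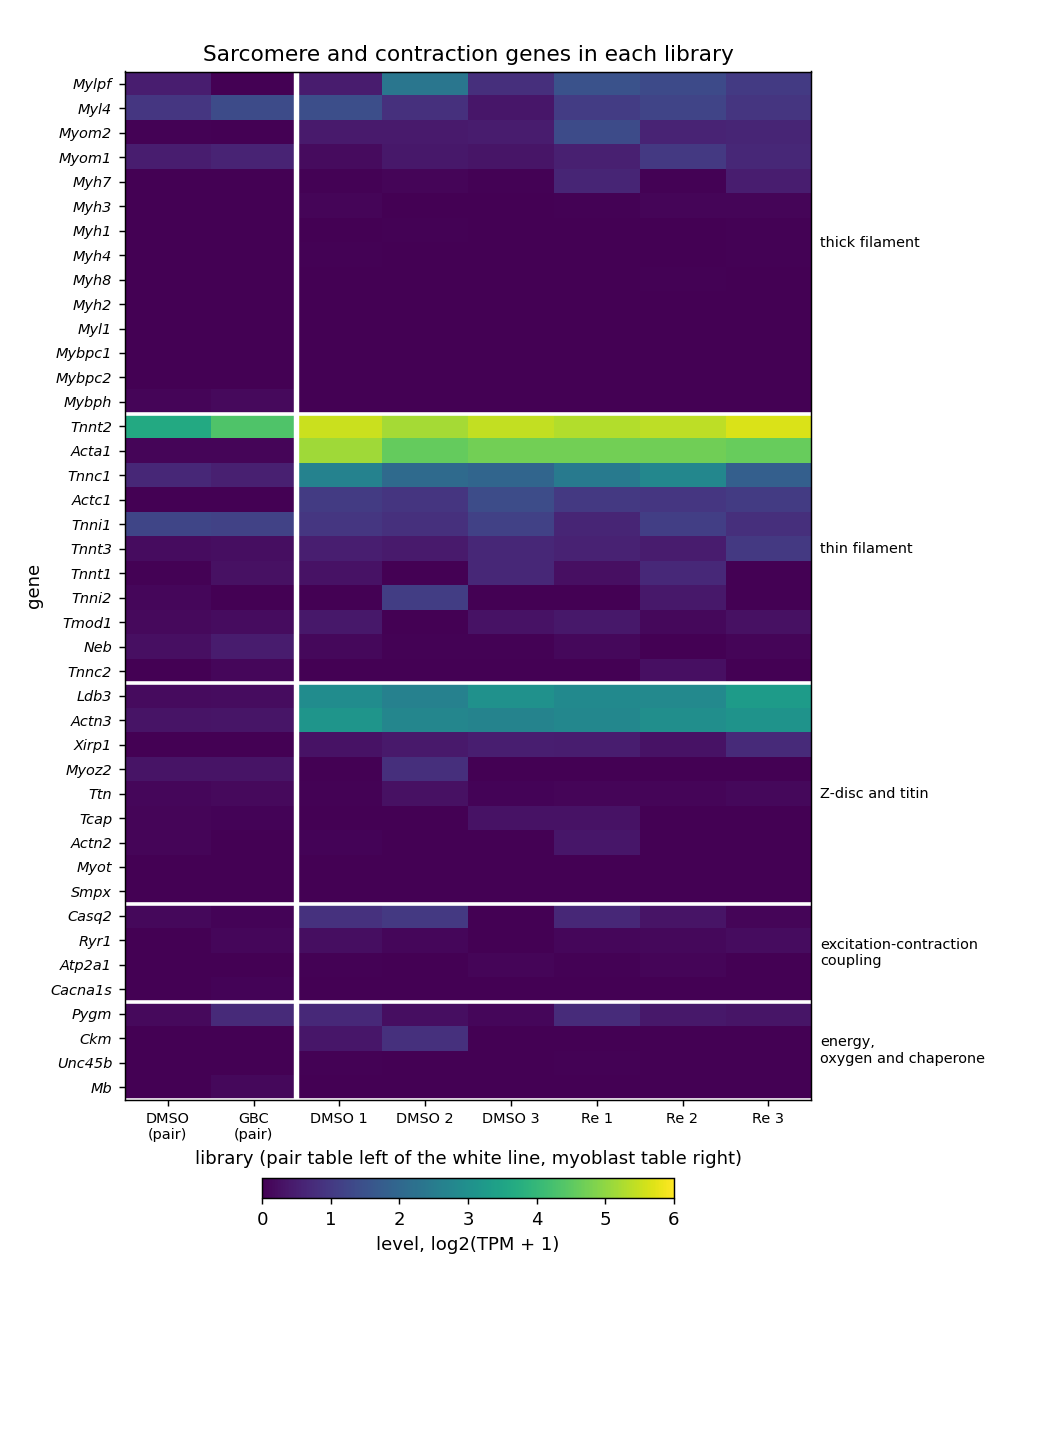
Level of each of the 42 genes, as log2(TPM + 1), in each of the 8 libraries, with genes grouped by part of the sarcomere and the pair table left of the white line. Tnnt2 is bright in all 8 libraries, Acta1, Ldb3 and Actn3 only in the 6 libraries of the myoblast table, and most rows stay dark.

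Among the thin filament genes, Tnnt2, which encodes the troponin T of heart and embryonic skeletal muscle, had the highest level. It was at 44.7, 35.8 and 42.9 TPM in the DMSO libraries 1 to 3 and at 38.95, 41.2 and 49.9 TPM in the Re libraries 1 to 3. Acta1, the alpha-actin of skeletal muscle, came next, at 34.5, 23.0 and 25.3 TPM in DMSO and 25.6, 24.95 and 23.4 TPM in Re. Of the cardiac markers, Nkx2-5 was at 6.32 to 9.07 TPM, Gata4 at 9.42 to 13.5 TPM, Nppa at most 0.36 TPM, Myh6 at most 0.26 TPM and Tnni3 above 0 only in DMSO 3, at 0.47 TPM. The part of cardiac-type expression in the Tnnt2 level was not tested. The 6 Tnnt2 values lay above the 6 Acta1 values without overlap. Together these 2 genes held 69.0% to 75.4% of the summed TPM of the 42 genes in the 6 libraries. Tnnc1, the calcium-binding troponin C of slow and cardiac muscle, was at 5.36, 3.21 and 2.91 TPM in DMSO and 4.5, 5.87 and 2.55 TPM in Re. Actc1, the cardiac alpha-actin that developing skeletal muscle also makes, was at 1.07, 0.9 and 1.63 TPM in DMSO and 0.98, 0.94 and 1.05 TPM in Re.

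The Z-disc contributed 2 genes of nearly the same level. Ldb3, a PDZ and LIM domain protein that binds alpha-actinin, was at 6.54, 5.26 and 7.2 TPM in DMSO and 6.23, 6.04 and 8.76 TPM in Re. Actn3, the alpha-actinin of fast fibres, was at 7.8, 5.75 and 5.38 TPM in DMSO and 5.83, 6.78 and 7.46 TPM in Re. Their means over the 6 libraries, 6.67 ± 1.2 and 6.5 ± 0.996 TPM (SD, n = 6), differed by less than that spread. Actn2, the alpha-actinin of heart and of all skeletal fibres, was above 0 in 2 of the 6 libraries, with 0.04 TPM for DMSO 1 and 0.28 TPM for Re 1. Xirp1, an actin-binding repeat protein of muscle attachment sites, was at 0.23, 0.33 and 0.42 TPM in DMSO and 0.4, 0.22 and 0.64 TPM in Re, and at 0 in the pair. Ttn, which encodes titin, the spring that runs from Z-disc to M-band, was between 0.02 and 0.2 TPM in all 6 libraries. The titin cap Tcap was at 0 or 0.23 TPM.

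The thick filament was represented by 2 light chains at low level and by almost no heavy chain. Mylpf, the regulatory light chain of fast fibres, was at 0.37, 4.14 and 0.74 TPM in DMSO and 1.86, 1.53 and 1.03 TPM in Re, so that DMSO 2 was the highest of the 6. Myl4, the essential light chain of embryonic muscle and atrium, was at 1.73, 0.78 and 0.29 TPM in DMSO and 1.1, 1.33 and 0.91 TPM in Re. Mylpf, Actc1 and Myl4 had means of 1.61 ± 1.35, 1.1 ± 0.27 and 1.02 ± 0.492 TPM (SD, n = 6), in an order that does not exceed their spread. Of the myosin heavy chains, the motors themselves, only Myh7, the slow and cardiac chain, had a mean over 0.1 TPM. The embryonic chain Myh3 was at most 0.06 TPM, and the adult fast chains Myh1 and Myh4 and the perinatal chain Myh8 at most 0.03, 0.02 and 0.02 TPM. The fast chain Myh2 was listed at 0 throughout. The light chain Myl1 and the myosin-binding proteins Mybpc1 and Mybpc2 were listed at 0 in all 8 libraries.

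Levels differed between the tables for Acta1, Actn3, Ldb3, Actc1 and Tnnc1. These are descriptions, since the tables were treated as normalised separately and batch and cells cannot be told apart between them. Acta1 was at 23.0 to 34.5 TPM in the myoblast DMSO libraries and at 0.05 TPM in both libraries of the pair. Actn3 was at 5.38 to 7.8 TPM against 0.24 and 0.26 TPM, Ldb3 at 5.26 to 7.2 TPM against 0.13 and 0.15 TPM, and Actc1 at 0.9 to 1.63 TPM against 0 and 0. Tnnc1 was at 2.91 to 5.36 TPM against 0.6 and 0.44 TPM. Tnnt2 was lower in the pair but present, at 19.5 TPM with GBC and 11.5 TPM in its control. Tnni1 was at 1.38 and 1.28 TPM in the pair and Myl4 at 0.94 and 1.59 TPM, within or close to the range of the myoblast table. Smooth muscle type genes moved with this contrast: the summed level of the list Acta2, Tagln, Cnn1, Myh11 and Smtn was 1790 to 2020 TPM in the myoblast DMSO libraries and 12.3 and 16.9 TPM in the pair, with Myh11 at most 0.13 TPM anywhere. Their part in the levels above was not tested.

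Promoter sequences are shown for the genes whose windows hold a CArG box, the site of serum response factor, because 3 of them, Acta1, Actc1 and Ldb3, were among the genes above 1 TPM in the myoblast table and at or near 0 in the pair. A RefSeq promoter window of 300 bases, from 250 before to 50 after the gene's start on GRCm38.p6, was used for 34 of the 42 genes, some with more than 1 window. Windows on 1 chromosome were left out for the 42 genes but kept in the count of all windows. All motifs were searched on both strands. The CArG box was found in 3 of the 7 genes at 1 TPM or more and in 2 of the 27 others. Counted by window, it was in 6 of the 40 windows of these genes and in 1.63% of all 32851 windows. Of the 6 windows 2 are overlapping windows of Ldb3 that hold the same box, so the 6 windows belong to 5 genes. The gene at 1 TPM or more that had no window was Actn3. Tnnc1, which was also lower in the pair, had a window without a CArG box. This motif was picked out of those searched after the levels were seen, so its counts are a description only. The sequences run 5′ to 3′ on the gene's strand, with the CArG box in capitals.
Acta1, chr8:123894726-123895025, minus strand: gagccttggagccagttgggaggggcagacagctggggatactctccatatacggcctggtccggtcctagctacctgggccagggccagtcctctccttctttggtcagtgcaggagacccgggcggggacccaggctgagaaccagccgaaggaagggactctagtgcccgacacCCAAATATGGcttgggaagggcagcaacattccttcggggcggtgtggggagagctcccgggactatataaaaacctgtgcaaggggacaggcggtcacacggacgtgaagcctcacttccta
Actc1, chr2:114052826-114053125, minus strand: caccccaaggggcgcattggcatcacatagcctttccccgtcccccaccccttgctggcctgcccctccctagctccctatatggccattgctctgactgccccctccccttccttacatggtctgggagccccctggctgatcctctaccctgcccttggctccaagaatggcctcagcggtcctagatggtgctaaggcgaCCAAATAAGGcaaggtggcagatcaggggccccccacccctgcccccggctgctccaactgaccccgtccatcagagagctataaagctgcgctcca
Ldb3, chr14:34588632-34588931, minus strand: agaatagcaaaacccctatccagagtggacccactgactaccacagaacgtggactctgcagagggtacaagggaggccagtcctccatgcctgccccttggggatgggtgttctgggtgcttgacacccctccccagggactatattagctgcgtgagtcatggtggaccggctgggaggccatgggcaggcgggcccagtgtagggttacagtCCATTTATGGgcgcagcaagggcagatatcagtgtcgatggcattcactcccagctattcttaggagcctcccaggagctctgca
Myh4, chr11:67237562-67237861, plus strand: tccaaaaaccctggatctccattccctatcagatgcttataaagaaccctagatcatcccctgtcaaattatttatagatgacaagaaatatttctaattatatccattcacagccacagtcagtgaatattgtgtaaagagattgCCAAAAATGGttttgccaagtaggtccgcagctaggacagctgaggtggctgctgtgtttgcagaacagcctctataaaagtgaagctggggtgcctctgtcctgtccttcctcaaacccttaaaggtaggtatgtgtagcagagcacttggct
Myom1, chr17:71019307-71019606, plus strand: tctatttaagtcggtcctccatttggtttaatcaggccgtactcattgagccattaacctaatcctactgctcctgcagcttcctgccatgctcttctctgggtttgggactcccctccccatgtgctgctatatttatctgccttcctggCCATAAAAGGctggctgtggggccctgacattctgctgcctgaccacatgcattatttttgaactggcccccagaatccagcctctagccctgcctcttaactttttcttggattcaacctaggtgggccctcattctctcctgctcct

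The box begins at position -73 from the annotated start in Acta1, at -47 in Actc1 and at -35 in the Ldb3 window shown. Acta1 and Actc1 also hold TATAAA, which begins at -7 in Acta1 and at 34, past the annotated start, in Actc1. All these positions depend on the annotated start, which was not checked in these cells. Myh4 holds TATAAA and a CArG box as well but was at most 0.02 TPM in any library. The myogenic E-box CAGCTG, which reads the same on both strands and is a form of the general E-box CANNTG, was found in 3 of the 7 genes at 1 TPM or more and in 11 of the 27 others, and in 16.3% of all windows. CANNTG itself was in 5 of the 7 and 22 of the 27, and in 72.3% of all windows. The MCAT element CATTCC was in 3 of the 7 and 9 of the 27, and in 14.7% of all windows, and TATAAA in 2 of the 7 and 8 of the 27, and in 13.6%. The MEF2 site was in 0 of the 7 and 6 of the 27, namely Casq2, Myh1, Myh4, Myh8, Myoz2 and Ttn, and in 3.19% of all windows. A match says only that these letters occur in the window.

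Within the troponin families the isoforms lay apart. Tnnt2 exceeded the fast form Tnnt3, at 0.36 to 1 TPM, and the slow form Tnnt1, at 0 to 0.62 TPM, in each of the 6 libraries. Tnnc1 exceeded the fast form Tnnc2 in each of them, and Tnnc2 was above 0 only in Re 2, at 0.19 TPM. Of the inhibitory subunits, the slow form Tnni1 was at 0.93, 0.78 and 1.23 TPM in DMSO and 0.53, 1.17 and 0.76 TPM in Re, with a mean of 0.9 ± 0.266 TPM (SD, n = 6), just under 1 TPM, while Myl4 lay just above. Tmod1, which caps the free end of the thin filament, was at 0 to 0.31 TPM. The fast form Tnni2 was at 1.14 TPM in DMSO 2, at 0.3 TPM in Re 2 and at 0 in the other 4 libraries. Tnni1 was above Tnni2 in every library but DMSO 2.

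The genes of calcium release and of energy supply were near or at 0. Ryr1, the calcium release channel, was at 0.01 to 0.17 TPM, and Atp2a1, the calcium pump of fast fibres, at 0 to 0.06 TPM. Casq2, the calcium store protein of heart and slow fibres, was at 0.81, 1 and 0 TPM in DMSO and 0.6, 0.24 and 0.05 TPM in Re. Cacna1s, the voltage sensor, and Mb, the oxygen carrier myoglobin, were listed at 0 in all 6 libraries of the myoblast table and at 0 in the DMSO library of the pair, with 0.04 and 0.09 TPM in the GBC library. Ckm, muscle creatine kinase, was at 0.28, 0.79 and 0 TPM in DMSO and at 0 in all 3 Re libraries. Pygm, muscle glycogen phosphorylase, was at 0.07 to 0.66 TPM. Unc45b, the chaperone that folds muscle myosin, was at 0.03 TPM in DMSO 1 and Re 1 and at 0 elsewhere. Myot and Smpx, of the Z-disc and the costamere, were listed at 0 in all 8 libraries, and Mybph at 0 in the myoblast table and at 0.06 and 0.12 TPM in the pair.

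Per-length values hide how many reads a long gene can gather. The product of mean TPM and exon length in kb, which rises with reads within a library, was 8.96 for Ttn, whose exons cover 116825 bases in the GENCODE M21 annotation, against 1.71 for Mylpf, whose exons cover 1062 bases. By that product Ttn ranked above Mylpf and Actc1 (1.77), although its level was 0.0767 TPM. In the pair Ttn and Neb, the ruler protein of the thin filament, had products of 11.1 and 7.44, above those of Myl4 (5.87) and Tnni1 (4.79). Neb was at 0.37 TPM with GBC and at 0.19 TPM in its control, and at 0.01 to 0.09 TPM in the myoblast table.

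For 12 of the 42 genes, a gene of the same family that also works outside muscle was chosen and set beside them. Tnnt2, Ldb3 and Tnnc1 were not among the 12. In all 12 such pairs the counterpart was the higher in every library of both tables. Actb, cytoplasmic beta-actin, had a mean of 5549 TPM over the myoblast libraries, 212.4 times that of Acta1. Actn1, the alpha-actinin of stress fibres, was at 165.0 to 211.1 TPM, 28.8 times Actn3, which was the closest of the pairs whose muscle gene was above 0 in every library. Myh9, non-muscle myosin, was at 318.9 to 480.4 TPM where no sarcomeric heavy chain passed 0.55 TPM. Atp2a2, the calcium pump of most cells, was at 56.95 to 82.3 TPM, Unc45a at 11.4 to 16.4 TPM, Tmod3, which caps actin filaments, at 21.3 to 25.3 TPM, and Pygb, the brain form of glycogen phosphorylase, at 24.1 to 31.4 TPM. Ckb, the brain form of creatine kinase, was low in the pair too, at 0.07 and 0.11 TPM, against 6.06 to 8.88 TPM in the myoblast table.

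**Figure D2:**
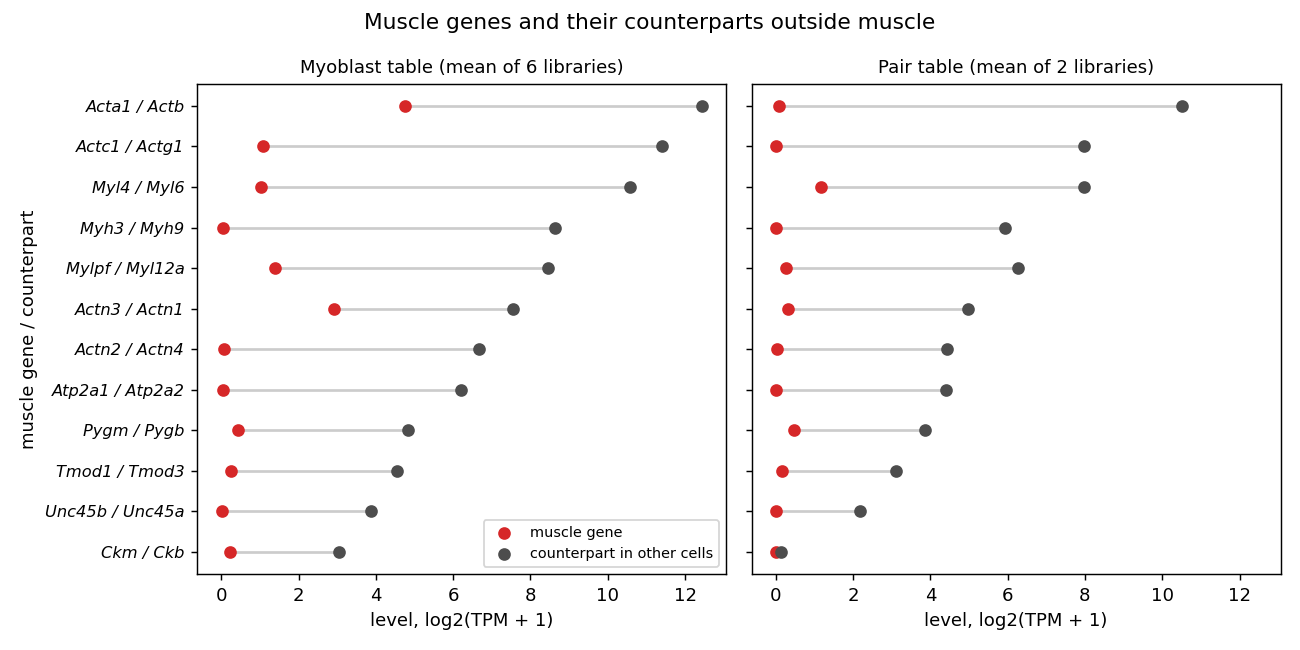
Mean level, as log2(TPM + 1), of 12 chosen muscle genes (red) and a family member that also works outside muscle (grey), over the 6 libraries of the myoblast table (left) and the 2 libraries of the pair (right). The grey point lies right of the red one in every row of both panels.

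The other genes of the same functions, on lists kept apart from the 42, are given for comparison. Among 29 further sarcomere genes 6 averaged 1 TPM or more in the myoblast libraries. Tpm1 and Tpm2, the tropomyosins that most muscle and many other cells make, were at 965.0 ± 69.7 and 479.0 ± 32.9 TPM (SD, n = 6), and Flnc, a filamin of the Z-disc, at 48.2 ± 7.87 TPM. Among 15 further genes of excitation-contraction coupling 7 reached 1 TPM, and in the order of level these were led by Jph2, which ties the T-tubule to the reticulum, at 12.5 ± 0.622 TPM, and by the calcium channel subunits Cacng1 at 11.96 ± 2.07 TPM and Cacna2d1 at 11.9 ± 1.75 TPM. Ryr3, another ryanodine receptor, was at 2.32 ± 0.504 TPM where Ryr1 was at 0.0933 ± 0.0561 TPM. In the pair Cacng1 and Ryr3 were listed at 0 and Jph2 at 0.01 TPM. Among 11 further energy genes 5 reached 1 TPM, with Eno3, the enolase of muscle, at 249.2 ± 19.1 TPM.

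Ginsenoside Re was compared with DMSO within the myoblast table, to ask which genes respond to the compound in these cells. No sarcomere gene passed the test. Of the 42 genes 8 averaged 1 TPM or more and entered the limma fit made over every such gene. Of these 8, 0 had an adjusted p under 0.05 and 0 an unadjusted p under 0.05. Limma without trend gave 0 at the adjusted threshold too. The same holds for all genes: 0 of 11967 passed, which is 0.0%, and 745 had an unadjusted p under 0.05. The median difference of the 8 genes was 0.08 on the log2(TPM + 1) scale, with 6 higher and 2 lower, beside a median of 0.11 over all genes tested. After median-of-ratios scaling, which moves the median of all genes to -0.00066, the 8 genes had a median of -0.0046, with 4 higher and 4 lower.

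The intervals show what the 3 against 3 comparison could resolve. Tnnt2 averaged 43.4 ± 5.81 TPM with Re and 41.1 ± 4.68 TPM in the controls (SD, n = 3). Re minus DMSO was 0.07 on the log2(TPM + 1) scale (SE 0.127; 95% limits -0.22 and 0.37; adjusted p = 0.844, limma). Acta1 averaged 24.6 ± 1.1 TPM with Re and 27.6 ± 6.11 TPM in the controls, and Re minus DMSO was -0.14 (SE 0.148; limits -0.48 and 0.21; adjusted p = 0.747, limma). Without DMSO 1, the highest of the 6 Acta1 values, the difference was 0.03. For Ldb3 and Actn3 the differences were 0.12 and 0.08, with limits of -0.28 and 0.52 for Ldb3 and of -0.29 and 0.45 for Actn3, and adjusted p of 0.81 and 0.859 in limma. The lower genes had wider intervals. Tnnc1 differed by 0.12, from -0.53 to 0.77, Actc1 by -0.13, from -0.6 to 0.33, and Myl4 by 0.19, from -0.48 to 0.86, with adjusted p of 0.885, 0.823 and 0.822 in limma. Mylpf had the widest, from -0.97 to 1.15 around 0.09, with an adjusted p of 0.95 in limma, and its sign turned with single libraries. Without DMSO 2 the Mylpf difference was 0.67, with limits of 0.08 and 1.25, an unadjusted p of 0.0319 and an adjusted p of 0.9 in limma. It was -0.29 without DMSO 1, -0.12 without DMSO 3 and -0.025 without Re 1. After median-of-ratios scaling the differences of Tnnt2 and Actn3 were -0.040 and -0.017. All 8 genes had DMSO and Re values that overlapped. Of all genes tested, 13.7% had all Re values above all DMSO values and 1.27% had all below. All 5 cycling markers had positive differences, as did 77.5% of all genes tested, and 0 passed the threshold in limma. Their median difference was 0.098, under the 0.105 of all genes, and their summed level was 577.0 to 639.9 TPM in DMSO and 642.95 to 680.1 TPM in Re. That of 5 markers of commitment and fusion was 0.67 to 1.14 TPM in DMSO and 0.09 to 0.87 TPM in Re, and Mef2c alone gave 1.04 of the 1.14 TPM in DMSO 1. Mef2c was also at 3.09 and 5.86 TPM in the pair, where the other 4 were listed at 0. Their part in the differences above was not tested.

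**Figure D3:**
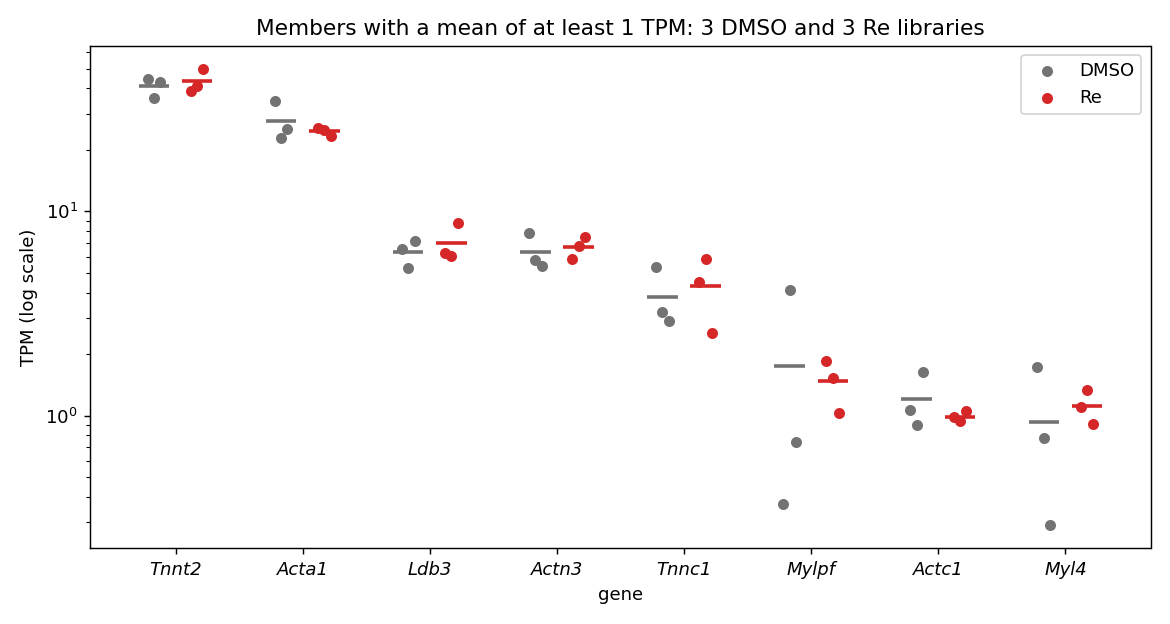
TPM on a log scale of the 8 genes that averaged 1 TPM or more, with 1 point per library and a bar at the mean of 3 DMSO (grey) and 3 Re (red) libraries. The points of the 2 groups overlap in every gene, and Mylpf spreads from 0.37 to 4.14 TPM within DMSO.

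**Figure D4:**
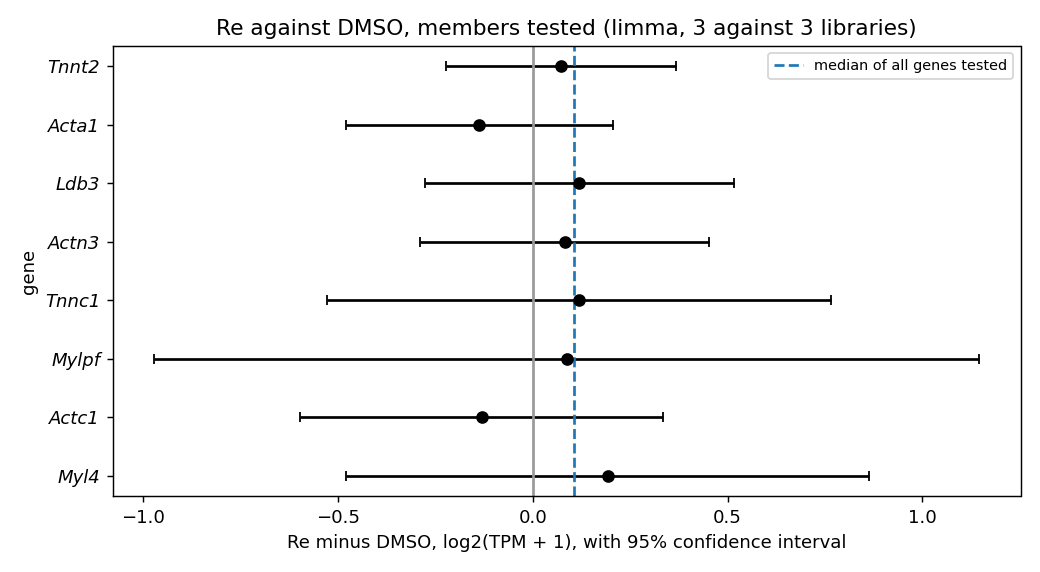
Re minus DMSO on the log2(TPM + 1) scale with 95% limits from limma (3 against 3 libraries), for the 8 genes tested. Every bar spans 0 and the dashed line, which is the median of all genes tested at 0.11.

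Among the 25 genes above 0 with a mean under 1 TPM, 2 had Re values that all lay above the DMSO values, and none had them all below. Both encode myomesins, which cross-link myosin at the M-band, and they are named here after their values were seen. Myom1 was at 0.13, 0.3 and 0.26 TPM in DMSO and 0.43, 1 and 0.58 TPM in Re. Myom2 was at 0.34, 0.35 and 0.37 TPM in DMSO and 1.57, 0.51 and 0.54 TPM in Re, so that Re 1 stood above the other 5 libraries. Such separation with Re higher was seen in 3.58% of the 11935 genes above 0 that averaged under 1 TPM, and with Re lower in 1.35%. Both myomesins were among the 13 genes that averaged 0.1 to 1 TPM, and at that level 5.73% of all genes were separated with Re higher and 2.34% with Re lower. The exact permutation test, two-sided, gave p = 0.1 for each, the smallest value that 3 against 3 libraries allow. Full separation fixes that value in advance, so the test adds nothing for genes picked by it. When limma was run with no filter on level, Myom1 differed by 0.43 (limits 0.08 and 0.78) and Myom2 by 0.42 (limits -0.1 and 0.95), each with an adjusted p of 0.774. Myom2 was also tested after mitochondrially encoded genes were left out, with an adjusted p of 0.941 in limma.

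Exons of Myom1 overlap those of Myl12a on the opposite strand in the GENCODE M21 annotation, and without knowing whether counting used strand, reads of the 2 genes cannot be told apart there. Myl12a, a light chain of non-muscle myosin, was at 394.8, 281.3 and 358.4 TPM in DMSO and 358.6, 343.9 and 354.9 TPM in Re, so its groups overlapped. Tnnc2, Tmod1 and Atp2a1 also share exon positions with an expressed gene on the opposite strand, namely Ube2c, Tstd2 and Rabep2, with means of 117.6, 22.1 and 8.8 TPM. The fast heavy chains share sequence with each other, so the split between those chains is uncertain. Of the 50-base stretches of Myh1 transcripts 25.4% occur in another gene, against 2.02% for Acta1 and 0.123% for Tnnt2. The split between Myh7 and Myh6 is uncertain too, since 15.6% of the stretches of Myh7 occur in another gene, nearly all of them in Myh6.

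Mylpf and several of the low genes had their highest value in DMSO 2, and other low genes had theirs in the other libraries. Of the 25 genes above 0 with a mean under 1 TPM, 6 were highest in DMSO 2. The rest were highest in DMSO 1 (5), DMSO 3 (2), Re 1 (4), Re 2 (5) and Re 3 (3), with ties given to the first library. DMSO 2 held the highest value of Mylpf (4.14 TPM), Tnni2 (1.14 TPM), Casq2 (1 TPM), Ckm (0.79 TPM), Myoz2 (0.75 TPM), a Z-disc protein that was at 0 in the other 5 libraries, Ttn (0.2 TPM) and Myh1 (0.03 TPM). Of the 5 markers of commitment and fusion, Myog was highest there, at 0.3 TPM, Mymk in DMSO 3, at 0.29 TPM, Mymx and Myf6 in Re 1, at 0.21 and 0.33 TPM, and Mef2c in DMSO 1, at 1.04 TPM. Their sum of 0.67 TPM in DMSO 2 was the lowest of the 3 DMSO libraries. The summed level of the 25 genes above 0 under 1 TPM was 6.33 TPM in DMSO 2 and 6.55 TPM in Re 1, which held the highest values of Myom2 and Myh7. Myh7 was at 0.02, 0.05 and 0.03 TPM in DMSO and 0.55, 0.03 and 0.4 TPM in Re, so that Re 2 stayed within the control range. DMSO 2 also had the lowest sum of listed TPM and the fewest genes above 0, 16527 against 17032 to 19006. The part of these in the values was not tested.

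**Figure D5:**
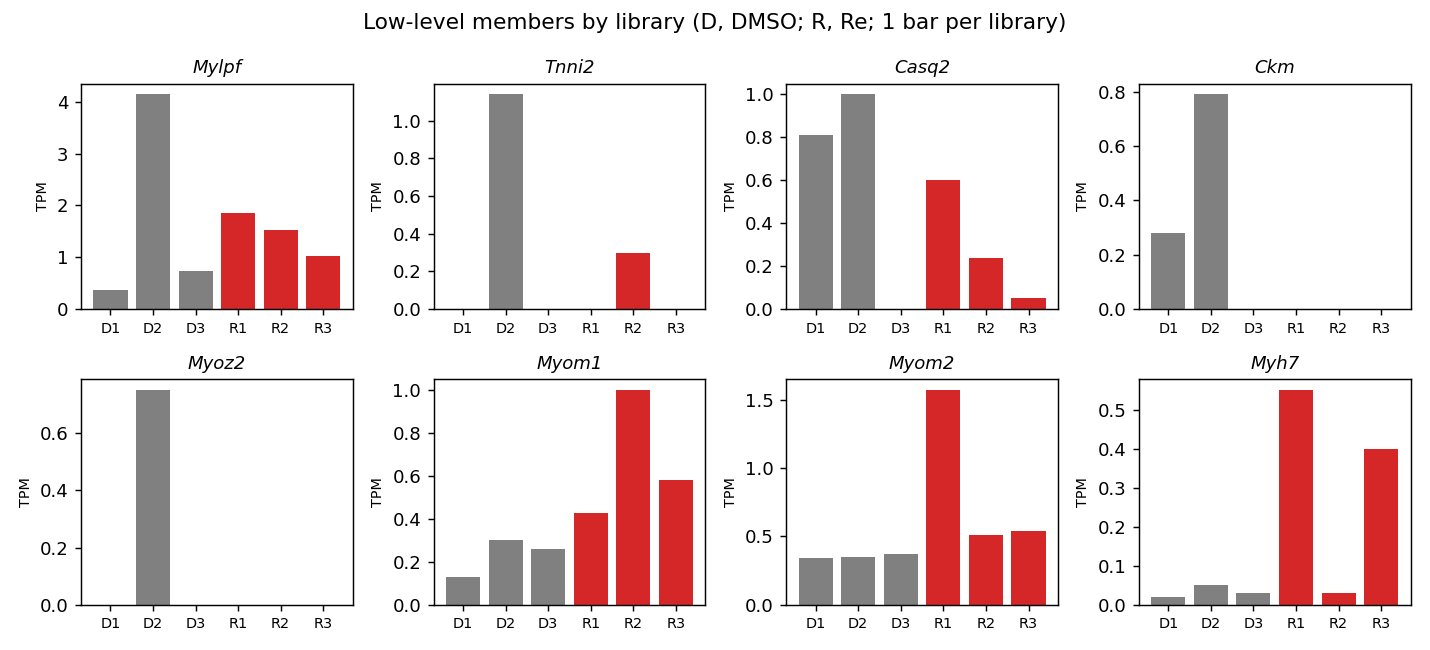
TPM of 8 low-level genes, with 1 bar per library (D, DMSO; R, Re) and a separate axis for each gene. Mylpf, Tnni2, Casq2, Ckm and Myoz2 are highest in DMSO 2, while Myom1 and Myom2 have all 3 Re bars above the DMSO bars.

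Of the comparison lists none had a gene past the threshold in limma, in either direction: 0 of 6 further sarcomere genes tested, 0 of 7 of excitation-contraction coupling, 0 of 5 of energy supply and 0 of 16 counterparts. Their median differences were 0.07, 0.05, 0.11 and 0.02, beside 0.11 over all genes. Tpm1 averaged 1002 ± 83.4 TPM with Re and 927.8 ± 32.4 TPM in the controls (SD, n = 3), and differed by 0.11 with an adjusted p of 0.714 in limma. Jph2 differed by -0.03 and Cacng1 by 0.05.

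GBC was compared with DMSO in the pair, with 1 library per group and therefore no test and no replicate check. Of the 42 genes 3 averaged 1 TPM or more, and 0 of the 3 reached a difference of 1 in log2(TPM + 1), where 4.75% of 10989 genes did, 4.35% higher and 0.4% lower. Tnnt2 stood at 19.5 TPM with GBC and at 11.5 TPM in the control, which is 0.71 higher on that scale. Myl4 differed by 0.42, from 0.94 TPM with DMSO to 1.59 TPM with GBC, and Tnni1 by -0.06, from 1.38 to 1.28 TPM. The median over all genes was 0.32, so the difference of Tnnt2 was above it and that of Tnni1 below. After median-of-ratios scaling, with a median of -0.0013 over all genes, the 3 differences were 0.34, 0.2 and -0.28.

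The other sarcomere genes averaged under 1 TPM in the pair. Some of them, such as Tnnc1, Actn3 and Mylpf, averaged more than 1 TPM in the myoblast table. Tnnc1 was at 0.6 TPM with DMSO and 0.44 TPM with GBC, and Myom1 at 0.39 and 0.52 TPM. Myoz2 was at 0.24 TPM in both, Actn3 at 0.24 and 0.26 TPM, Tnnt3 at 0.14 and 0.17 TPM, Tmod1 at 0.11 and 0.14 TPM, and Tnnt1 at 0.03 and 0.21 TPM. Pygm, the glycogen phosphorylase of muscle, was at 0.11 and 0.65 TPM, a difference of 0.57. Mylpf was at 0.4 TPM in DMSO and 0 in GBC. Among the counterparts and other sarcomere genes, Atp2a2 was at 9.52 and 30.7 TPM, Flnc at 9.44 and 21.8 TPM, Myh10, a non-muscle myosin, at 18.3 and 38.1 TPM, and Actn4 at 13.2 and 27.6 TPM. These 4 were the only genes of those lists past a difference of 1, at 1.59, 1.13, 1.02 and 1.01. The median over all genes was 0.32. They were 3 of 15 counterparts and 1 of 5 other sarcomere genes averaging 1 TPM or more, where 4.35% of all such genes were that much higher. Each rests on 1 library per group, and these 4 differences were not examined after median-of-ratios scaling.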

How the data were processed

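RNA was sequenced from 8 libraries labelled C2C12. The deposited values are log2(TPM + 1) per Ensembl gene. Per the submitters' processing notes, STAR and RSEM were used and the builds GRCh38 and GRCm39 are named, without versions or roles. Settings, annotation and strand were not given in the sources used here. Columns were matched to samples by the library names in the labels. Back-transformed values were multiples of 0.01 TPM within 2e-04, and were rounded to them.

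The Re comparison used limma 3.58.1 (R 4.3.3; lmFit, eBayes with trend, two-sided) on log2(TPM + 1), over genes averaging 1 TPM or more, with Benjamini-Hochberg adjustment over all genes and a threshold of 0.05. Differences on this scale understate the change of low genes. The step was also run on simulated libraries with planted differences, and no statement here rests on that run. GBC has 1 library per group and no test. Promoters came from RefSeq (GRCm38.p6) and exon lengths, exon overlaps and shared 50-base stretches from GENCODE M21 transcripts, another build than GRCm39, with the match made by gene symbol or ID. Other steps used Python 3.11.15, numpy 2.4.6, pandas 2.3.3, scipy 1.17.1 and matplotlib 3.10.9.

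The genes and lists were chosen with earlier results of these data known. Values in every library are given for sarcomere genes averaging 1 TPM or more in either table, shorter values for those at 0.1 TPM or more, and ranges for the rest. From other lists up to 4 genes of the highest level are named, and those of the same family as a gene they are set beside. For the GBC comparison, Atp2a2, Flnc, Myh10 and Actn4 are named because they passed a difference of 1. Myom1 and Myom2 are singled out for values that were seen first. The planned comparison of protein sequences was not made. Alternatives were pseudocounts of 0.1 and 0.5, other filters, 3 rescalings, no trend, leaving out each library in turn and a replicate block.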

Additional observations from a re-analysis of the deposited data

How the results depend on the processing

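Depth is unknown, which limits what can be said of values under 1 TPM. No sarcomere gene passed the threshold in limma under any alternative, and the smallest adjusted p of a tested one over all alternatives was 0.46. Over all genes the number called was 0 in every alternative that kept the 6 libraries and 0 to 7 with 1 library left out (4, 6 and 0 without DMSO 1, 2 and 3, and 3, 1 and 7 without Re 1, 2 and 3), none of them a sarcomere gene. The libraries were treated as unpaired, since the descriptions number the Re libraries differently from the titles. Deviations of same-numbered DMSO and Re libraries correlated at 0.163, 0.0771 and 0.0168. Those of differently numbered libraries correlated at -0.172 to 0.0945. These values do not settle whether the libraries were paired. With a replicate block 0 genes were called and 0 of the 8 sarcomere genes, as without it, and 810 genes had an unadjusted p under 0.05, against 745. The median of the tested sarcomere genes ran from -0.0156 to 0.13 with 1 library left out. Some differences near 0 changed sign. After median-of-ratios scaling Actn3 was at -0.017 and Tnnt2 at -0.040, and without mitochondrially encoded genes Tnnt2 was at -0.017. With 1 library left out, Actn3 ran from -0.0088 to 0.22, Ldb3 from -0.031 to 0.21, Tnnt2 from -0.031 to 0.14, Mylpf from -0.29 to 0.67, Acta1 from -0.25 to 0.029, Myl4 from -0.066 to 0.26 and Tnnc1 from -0.093 to 0.38. Myl4 fell under the filter without DMSO 1 and without Re 2, and Actc1 without DMSO 3, so these have no value there. The cause was not tested.

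In the pair the median of the genes at 1 TPM or more was 0.42 and became 0.70 and 0.54 with pseudocounts of 0.1 and 0.5, 0.71 with a filter at 5 TPM, which leaves Tnnt2 alone, 0.203 after median-of-ratios scaling, 0.083 with both libraries rescaled to one sum, which brings in Tnnc1 and Myom1, and 0.27 without mitochondrially encoded genes. In that last setting 1 gene, Pygm, passed a difference of 1, at 1.01. Of the 8 genes at 1 TPM in the myoblast table, 4 had a mean of at least 5 TPM and 5 were at 1 TPM or more in every library. Of the 3 in the pair, 1 had at least 5 TPM, and 5 genes reached 1 TPM after rescaling to one sum.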
